A study of Mus musculus with 2 samples.

Results

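The imprinted cluster of distal mouse chromosome 7 was read in 2 clones of Klf5-overexpressing embryonic stem (ES) cells. Its genes lie in a pair of neighbouring domains, that of Igf2 and H19 and that of Kcnq1ot1. The 10 genes considered were Igf2, H19, Ascl2, Tspan32, Tssc4, Kcnq1ot1, Cdkn1c, Slc22a18, Phlda2 and Nap1l4, each read through every probe set that carries its symbol alone. Of these, 9 genes had such probe sets, 19 in all, among 18193 genes so measured on the array, and H19 had none. The set was selected on the measured difference between the clones in Cdkn1c, Phlda2 and Igf2, so the clone differences below describe the members and are not tested.

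Both samples were undifferentiated mouse ES cells of the E14 line, grown with serum and LIF (a cytokine that maintains self-renewal), and both overexpressed the zinc finger factor Klf5. They form 1 group with n = 2, 1 array per clone. The study set these clones against wild-type ES clones of another series, which were not analysed here, so no value below is an effect of Klf5. No source used here gives the construct that drives Klf5, whether feeder cells were present, or whether the clones were cultured or hybridised together.

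Imprinted genes are expressed mainly from the allele of 1 parent. In the Igf2 and H19 domain, a control region that is methylated on the paternal copy and bound by the insulator protein CTCF on the maternal copy lets the shared enhancers act on Igf2 on the paternal chromosome and on H19 on the maternal one. In the neighbouring domain the long non-coding RNA Kcnq1ot1 is transcribed from the paternal chromosome, starting within an intron of Kcnq1 and antisense to it, and silences nearby protein-coding genes in cis. Cdkn1c, Phlda2, Slc22a18 and Ascl2 are among the genes expressed from the maternal copy. The arrays read both alleles together and hold no allelic information.

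Promoter windows of Phlda2 and Igf2, of the non-coding RNA Kcnq1ot1 and of Slc22a18, the neighbour of Phlda2, are printed. Kcnq1ot1 differed the other way by its brightest probe set. The windows were chosen because methylation of CpG dinucleotides is the known mark of control regions in this cluster. Methylation was not measured. The windows hold no bases downstream of a start and do not stand for the control regions. Windows of RefSeq gene starts on build GRCm38.p6 were given for 7 of the 10 members, with 10 starts in all, 4 of them of Igf2. Cdkn1c, H19 and Nap1l4 are named only. Each sequence is the 250 bases upstream of a start, 5′ to 3′ on the gene's strand, with CpG dinucleotides in capitals. Phlda2 and one start of Igf2 are dense in CpG, Kcnq1ot1 is sparser, and Slc22a18, which lies beside Phlda2, has none.
Phlda2 (chr7:143502525-143502774, minus strand): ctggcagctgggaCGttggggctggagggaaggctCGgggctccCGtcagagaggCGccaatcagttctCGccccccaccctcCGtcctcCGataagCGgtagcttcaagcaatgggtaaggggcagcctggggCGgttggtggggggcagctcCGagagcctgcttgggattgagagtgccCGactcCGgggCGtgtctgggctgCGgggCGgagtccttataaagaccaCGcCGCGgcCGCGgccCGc
Igf2 (chr7:142658805-142659054, minus strand): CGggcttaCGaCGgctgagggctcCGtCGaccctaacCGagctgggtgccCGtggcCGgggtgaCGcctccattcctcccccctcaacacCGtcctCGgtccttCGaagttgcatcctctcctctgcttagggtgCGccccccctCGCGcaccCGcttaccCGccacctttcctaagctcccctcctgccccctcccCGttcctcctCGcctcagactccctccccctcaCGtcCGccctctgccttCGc
Kcnq1ot1 (chr7:143296548-143296797, minus strand): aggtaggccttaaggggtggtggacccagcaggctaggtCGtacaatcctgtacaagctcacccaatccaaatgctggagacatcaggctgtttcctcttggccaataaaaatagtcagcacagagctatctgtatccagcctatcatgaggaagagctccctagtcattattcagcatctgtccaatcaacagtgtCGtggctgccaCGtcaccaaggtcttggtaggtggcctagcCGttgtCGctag
Slc22a18 (chr7:143473539-143473788, plus strand): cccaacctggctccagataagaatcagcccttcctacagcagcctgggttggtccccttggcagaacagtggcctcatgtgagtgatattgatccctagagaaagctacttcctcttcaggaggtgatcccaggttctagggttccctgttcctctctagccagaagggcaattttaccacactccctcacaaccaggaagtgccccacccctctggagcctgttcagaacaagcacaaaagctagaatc

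The Phlda2 window held 21 CpG and the Igf2 window printed above 22, against a median of 6 over all 32851 windows of the table. The other Igf2 starts held 10, 6 and 1. Windows of Ascl2 and Tssc4 held 19 and 17, that of Kcnq1ot1 held 5, that of Tspan32 held 1 and that of Slc22a18 held 0. Among members lower in clone 2, the windows given held from 0 to 22 CpG, and Cdkn1c had no window. A relation between CpG content and the clone difference was not tested. The 5-base motif CACCC, which Klf factors can bind, was found on either strand in 9 of the 10 member windows and in 52.0% of all windows. The GC box GGGCGG was found in 4 of the 10, in Phlda2, Ascl2 and 2 starts of Igf2, and in 32.7% of all windows. The motif CANNTG, bound by basic helix-loop-helix factors such as Ascl2, was found in 6 of 10 and in 66.2% of all, and TATAA in that of Phlda2 alone of the 10 and in 22.8% of all. The motif TGCCGC, known from Zfp57, was in 0 of 10 and in 8.68% of all windows. Each motif was counted on both strands, GGGCGG and TGCCGC each contain a CpG, and a match describes these letters only.

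Signals are values as deposited, taken as log2. A probe set counted as above background where it exceeded a level of 6.49 in clone 1 or 6.26 in clone 2. Each level is the 95th percentile of the signals of 52 genes of differentiated adult tissues (83 probe sets). Differences are clone 2 minus clone 1. Because probe sets differ in affinity, levels of different genes were not ranked. Where 1 clone was not above background, its signal was raised to its background level and the fold is given as a bound. A gene was represented by its brightest probe set. With 1 array per clone the differences have no replicate check and no p-value was computed.

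Cdkn1c, Phlda2 and Igf2 were lower in clone 2 than in clone 1, while Nap1l4 and Tssc4 differed little. Kcnq1ot1 was higher by its brightest probe set, though only 3 of its 6 probe sets were higher. Of the 9 measured members, 7 were above background in both clones, Igf2 in clone 1 alone and Kcnq1ot1 in clone 2 alone, against 49.9% of all 18193 genes above background in both. By the rule of size (a 2-fold difference with the brighter clone above background), 3 members were lower in clone 2 and 0 higher. Over the 9691 genes that passed background in 1 clone or both, the same rule called 0.114% as lower and 0.371% as higher. At 1.5-fold, 4 members were lower and 0 higher, beside 0.702% and 3.9% of these genes. These 3 members were among the 11 genes so called as lower, and the contrast is the one that chose the set.

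Cdkn1c encodes the cyclin-dependent kinase inhibitor p57, which restrains growth in the embryo and placenta. Its single probe set read 8.18 for clone 1 and 6.64 for clone 2 (7.41 ± 1.09, SD, n = 2). Clone 1 was thus 2.91-fold higher, and both clones were above background, clone 2 by 0.38 only. The difference of -1.54, which helped choose the set, was the most negative of the 9691 genes.

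Phlda2 encodes a small pleckstrin homology domain protein that limits placental growth. Clone 1 read 9.49 and clone 2 read 8.20 (8.85 ± 0.91, SD, n = 2), so that Phlda2 was 2.45-fold higher in clone 1. Both signals stood well clear of background, by 3.00 in clone 1 and 1.94 in clone 2. The difference was -1.29. Of 2073 genes with a mean signal within 0.5 of that of Phlda2, 1 was at least as low, which is Phlda2 itself. The same held for Cdkn1c among 2102 genes. Both genes helped choose the set by this difference, so these counts describe them and are not a test.

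Igf2, the fetal insulin-like growth factor, gave 7.03 in clone 1 and 5.64 in clone 2 by its brighter probe set, a measured difference of -1.39. Clone 2 was not above background, so clone 1 was at least 1.70-fold higher, and Igf2 passed the rule of size by its measured difference and not by its bound. The other Igf2 probe set gave 3.50 and 3.11, above background in neither clone. Igf2os, the antisense transcript that overlaps Igf2, gave 5.22 and 5.20, also above background in neither. By the brightest probe sets, the members nearest to the 2-fold threshold were Phlda2 at -1.29 inside it and Tspan32 at -0.67 outside it. With the mean over its probe sets, Igf2 fell outside it at -0.89.

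**Figure D1:**
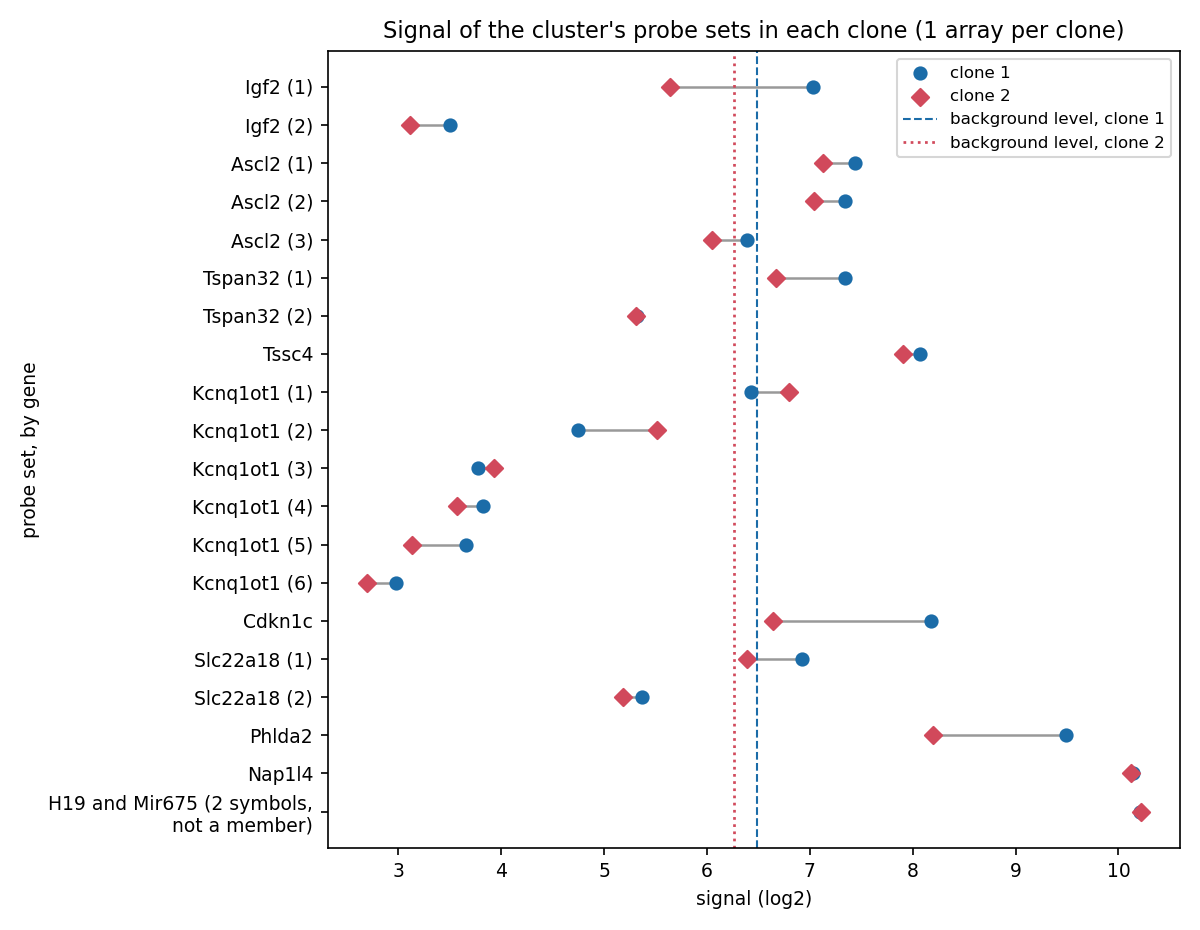
Log2 signal (horizontal axis) of the 19 single-symbol probe sets of the members and of the probe set annotated to both H19 and Mir675, with clone 1 as circles and clone 2 as diamonds, 1 array each. Dashed and dotted lines mark the background levels of 6.49 (clone 1) and 6.26 (clone 2). Cdkn1c, Phlda2 and the brighter Igf2 probe set show the widest gaps, with clone 1 on the right.

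Among the other maternally expressed genes the differences were smaller. Slc22a18, an organic cation transporter family member located between Cdkn1c and Phlda2, gave 6.92 and 6.39 by its brighter probe set, 1.44-fold higher in clone 1. Its second probe set gave 5.37 and 5.18, above background in neither clone. Ascl2, a basic helix-loop-helix factor needed in the trophoblast, was read by 3 probe sets, all lower in clone 2, with 7.44 and 7.13, 7.34 and 7.04, and 6.39 and 6.05. The first and second were above background in both clones and gave folds of 1.24 and 1.23, and the third was above it in neither.

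Tspan32, a tetraspanin of blood cells, gave 7.34 and 6.67 by its brighter probe set, 1.59-fold higher in clone 1. Its second probe set gave 5.32 and 5.31, above background in neither clone. Tssc4 gave 8.07 and 7.91, a difference of -0.16. Nap1l4, a nucleosome assembly protein gene at the edge of the domain, gave 10.14 and 10.12. Its difference of -0.02 turned to 0.07 under median normalization, so it has no settled direction.

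Kcnq1ot1, the non-coding RNA of the domain, was read by 6 probe sets, 3 higher and 3 lower in clone 2. The brightest gave 6.43 in clone 1, just under background, and 6.80 in clone 2, so that clone 2 was at least 1.24-fold higher. The next gave 4.75 and 5.51, and the remaining probe sets ranged from 2.98 to 3.82 in clone 1 and from 2.69 to 3.93 in clone 2, above background in neither clone. The higher signal of clone 2 thus rests on 1 probe set above background. With the mean over its probe sets the difference was 0.04. Kcnq1, the gene it overlaps in antisense, gave 4.72 and 4.53, also not above background, and which of the overlapping transcripts a probe set reads was not tested.

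H19, the non-coding RNA that shares enhancers with Igf2, had no probe set with its symbol alone. The array held 1 probe set annotated to both H19 and Mir675, the microRNA gene within H19, with 10.21 in clone 1 and 10.22 in clone 2. It was above background in both clones with a difference of 0.01. This probe set lay outside the rule and is given as a value of the shared annotation, beside the lower Igf2 signal of clone 2.

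Of the 9 members, 8 were lower in clone 2, against 35.0% of the 9691 genes. That share depends on scale, and was 50.0% under quantile, 48.5% under loess and 21.4% under median normalization, with 8, 8 and 7 members lower. The median difference over the members was -0.53, beside 0.09 over all genes. Without Cdkn1c, Phlda2 and Igf2, which chose the set, 5 of the other 6 measured members were lower in clone 2, with a median of -0.24 and a range of -0.67 to 0.37. These 5 include Tssc4 at -0.16 and Nap1l4 at -0.02, and Nap1l4 has no settled direction.

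**Figure D2:**
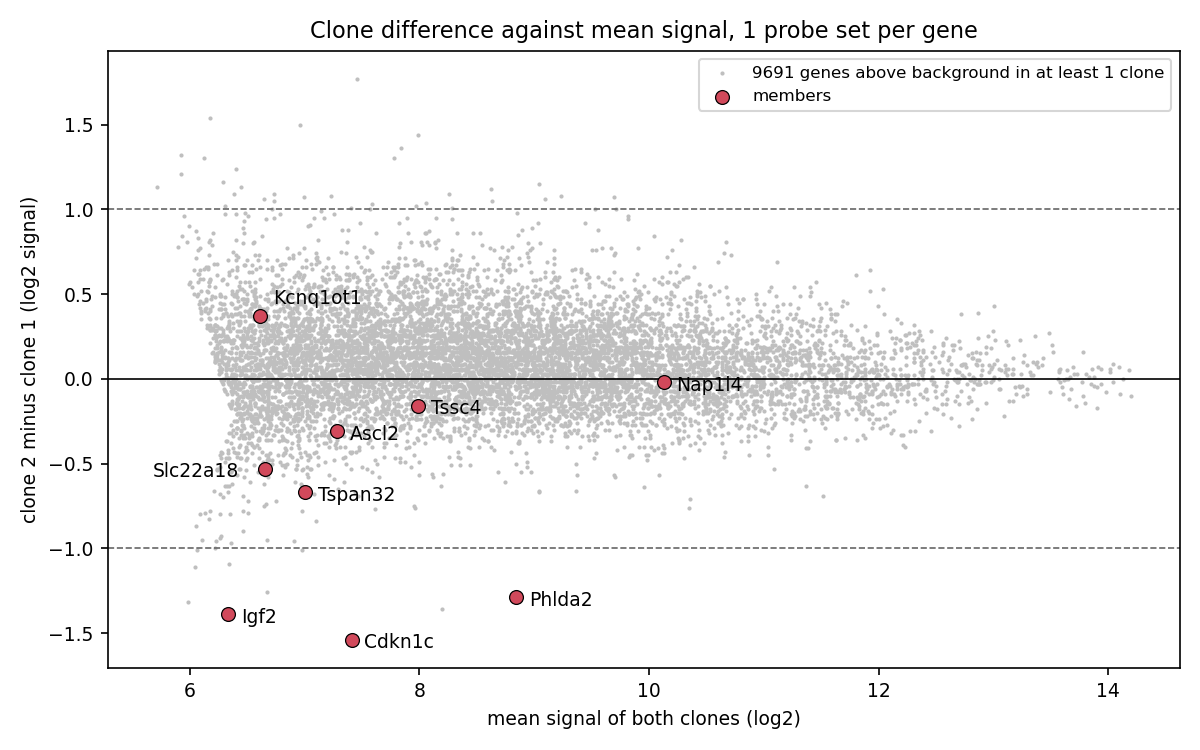
Clone 2 minus clone 1 in log2 signal (vertical axis) against the mean log2 signal of both clones (horizontal axis), 1 probe set per gene. Grey points are the 9691 genes that passed background in 1 clone or both, red points the members, and dashed lines mark a 2-fold difference. Cdkn1c (-1.54), Igf2 (-1.39) and Phlda2 (-1.29) lie at the lower edge of the cloud.

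By the order of genes on the chromosome, the lower signals were not continuous along the cluster. Between the outermost members 27 genes are annotated, and 17 of them had a single-symbol probe set, 9 members and 8 others. Of those 8, 2 were above background: Cd81, a tetraspanin gene between Tspan32 and Tssc4, with 11.32 and 11.48, and the non-coding R74862 with 6.55 and 6.45. From Kcnq1ot1 towards Nap1l4 the differences of the measured genes above background were 0.37 for Kcnq1ot1, -1.54 for Cdkn1c, -0.53 for Slc22a18, -1.29 for Phlda2 and -0.02 for Nap1l4. Past Phlda2, Nap1l4 and the 4 genes beyond it that were above background lay between -0.07 and 0.02.

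The 10 measured genes on the flank beyond H19 included 3 above background in both clones, Ctsd (9.86 and 10.16), Syt8 (6.67 and 6.58) and Mrpl23 (10.80 and 10.47). Beyond Nap1l4 the corresponding flank had 4, Cars (9.50 and 9.43), Nadsyn1 (6.87 and 6.84), Dhcr7 (9.39 and 9.37) and Cttn (11.63 and 11.65). Over the 9 non-member genes above background, flanks and interval together, the median difference was -0.03 with a range of -0.33 to 0.30, and 0 differed 2-fold.

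**Figure D3:**
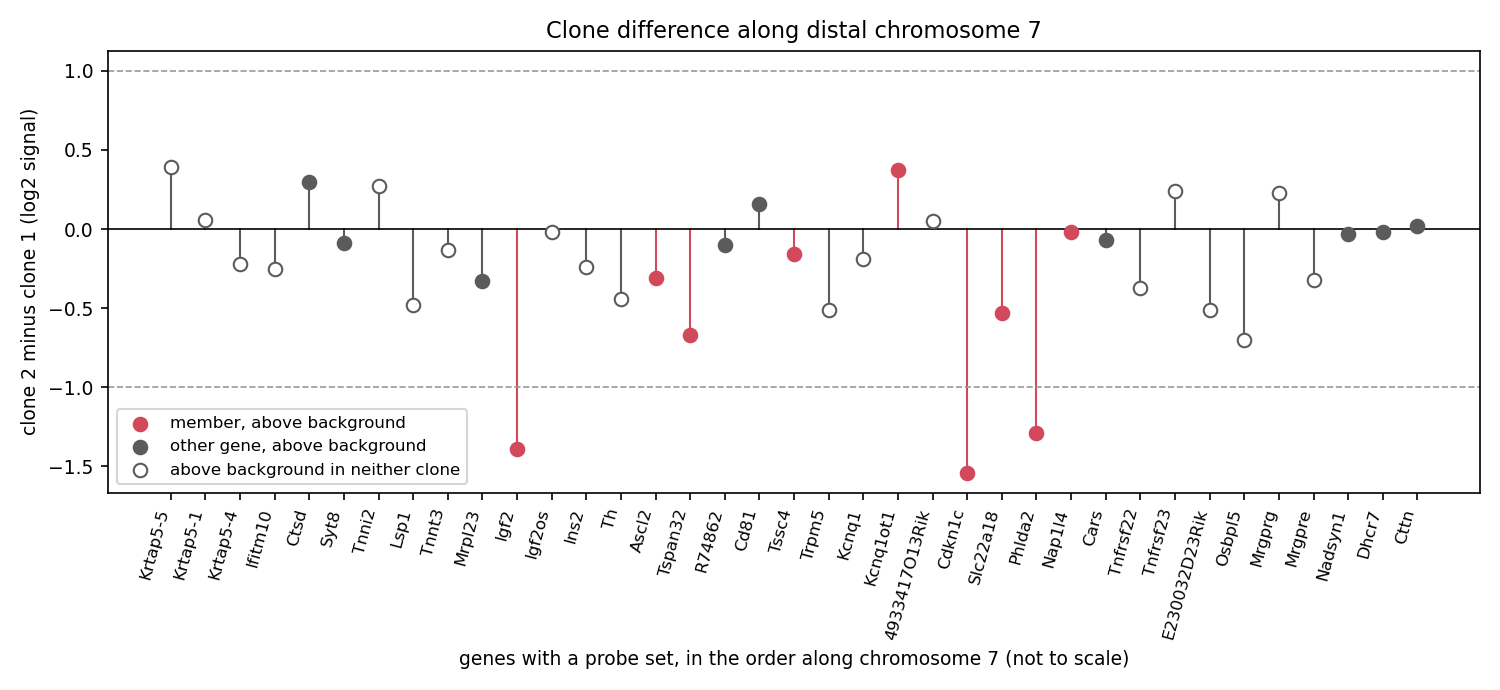
Clone 2 minus clone 1 in log2 signal (vertical axis) for the genes with a probe set between the outermost members and 10 genes on each side, in chromosomal order and not to scale. Red marks members, and open circles mark genes above background in neither clone. Igf2 at -1.39, Cdkn1c at -1.54 and Phlda2 at -1.29 pass the dashed line of a 2-fold difference, and genes between and beside them do not.

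The genes with the most similar clone difference were sought among genes whose mean signal lay within 0.5, over 2 arrays. For Igf2 these were Ifi203 (6.64 and 5.32), Mesp1 (7.30 and 6.04) and Prelid3a (6.60 and 5.49), all with clone 2 not above background, like Igf2 itself, so their differences have no exact size. For Cdkn1c the nearest were Chpf at -1.01, 4930563E22Rik at -0.96 and D2hgdh at -0.84, at least 0.53 away. For Phlda2 they were Nol8 at -0.67, Cmc2 at -0.66 and Kifc1 at -0.61, at least 0.62 away. The 5 genes with the most negative measured difference were Cdkn1c, Igf2, Rpl27a (8.88 and 7.52), Ifi203 and Phlda2, with Igf2 and Ifi203 not above background in clone 2.

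The IGF pathway around Igf2 was read from a list of its other ligands, receptors, adaptors and binding proteins. Of the ligands, Igf1 (4.86 and 4.61) and Ins2 (6.19 and 5.95) were above background in neither clone. Igf2r, the imprinted receptor that clears Igf2, gave 8.50 and 7.87 by its brighter probe set and 6.84 and 7.37 by the other, in opposite directions. Igf1r, which transmits the signal of Igf1 and Igf2, was above background in clone 2 alone by its brightest probe set (6.48 and 6.69). Of 8 adaptors 3 were above background, Gab1 (12.15 and 12.07), Shc1 (9.75 and 9.70) and Grb10, an imprinted inhibitor of the receptor (7.88 and 8.29). None of the genes of these lists differed 2-fold.

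Of 11 IGF-binding proteins and their proteases, 6 were above background in both clones, with a median difference of 0.12 beside 0.09 over all genes. Igfbp2 gave 11.86 and 12.12, and Htra1, a protease of binding proteins, gave 10.38 and 10.29. Igfbp3 differed most, with 6.61 and 7.56 by its first probe set and 6.83 and 6.96 by its second. Igfbp5 gave 6.50 and 6.83, and Igfbp7 6.74 and 6.35. Proteins that bind the Igf2 mRNA or related RNAs were above background for 4 of 5 measured, among them Igf2bp1 (10.57 and 10.73), Igf2bp3 (9.03 and 8.92), Elavl1 (10.81 and 10.76) and Lin28a (9.76 and 9.29), with a median of -0.08. The second Lin28a probe set went the other way (8.92 and 9.13).

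Of the 7 CDK inhibitors measured beside Cdkn1c, 6 were above background in at least 1 clone, with a median difference of 0.15 beside 0.09 over all genes. Of these, 4 gave the higher signal in clone 2, a share close to the 63.4% of all genes. Cdkn1b, which encodes p27, the Cip/Kip relative of p57, gave 7.43 and 8.23, 1.74-fold higher in clone 2. Cdkn1a, which encodes p21, gave 10.07 and 10.33 by its brightest probe set and 7.51 and 9.25 by the other, 3.34-fold higher in clone 2. Cdkn2d gave 8.72 and 8.52, and Cdkn2b passed in clone 2 alone (6.27 and 6.73). Neither Cdkn1a nor Cdkn1b was lower in clone 2, where Cdkn1c was. The Phlda2 relatives Phlda1 (8.86 and 9.43) and Phlda3 (8.98 and 9.24) were likewise higher in clone 2. The probe sets of Cdkn1a show how far probe sets of 1 gene can differ on these arrays, and Cdkn1c and Phlda2 each rest on a single probe set.

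Of 18 measured genes that maintain imprints, 17 were above background in both clones, with a median difference of 0.05, and 0 differed 2-fold by their brightest probe set. Zfp57, a zinc finger protein that binds methylated control regions, was lowest in clone 2 relative to clone 1, with 8.33 and 7.58 by its single probe set, 1.68-fold higher in clone 1. Its partner Trim28 gave 13.26 and 13.21, the methyltransferase regulator Dnmt3l 12.11 and 11.96, and the demethylating enzyme Tet2 8.77 and 9.17. The chromatin remodeller Atrx gave 10.15 and 10.59, with a difference between -0.52 and 1.33 over its 7 probe sets. Ctcf, the insulator protein of the H19 control region, gave 10.20 and 10.32.

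Of 35 measured imprinted genes outside the cluster, 25 were above background in at least 1 clone with a median of 0.12. Of these, 20 gave the higher signal in clone 2, against 63.4% of all genes. Rian (8.45 and 9.33) and Mirg (7.24 and 7.88), non-coding RNAs of the Dlk1 and Meg3 cluster, differed most upwards. Slc38a4, an amino acid transporter, gave 10.78 and 11.22, and Ube3a, a ubiquitin ligase, 10.90 and 10.93. Among those above background, 0 differed 2-fold by the brightest probe set. Whether the members differ from this list was not tested.

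**Figure D4:**
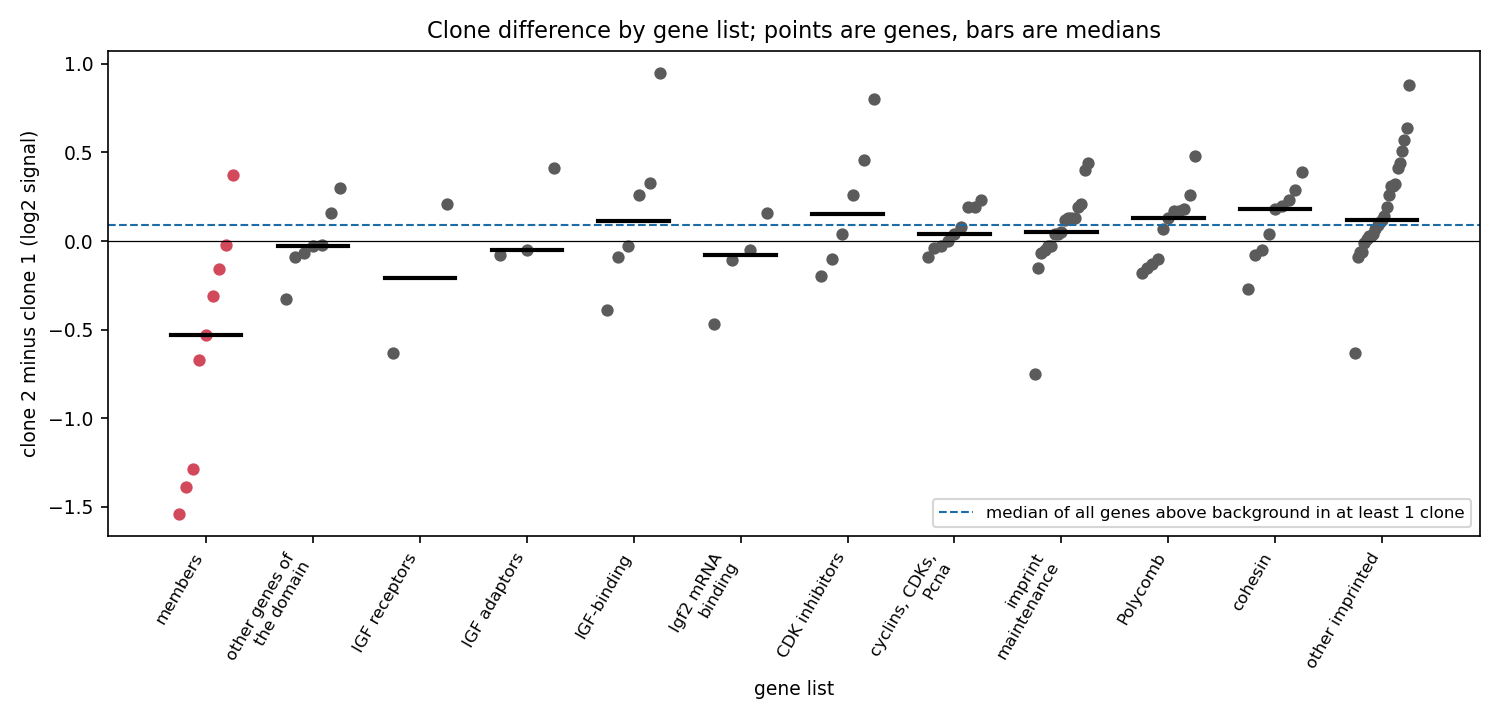
Clone 2 minus clone 1 in log2 signal (vertical axis) for genes above background in at least 1 clone, by gene list (horizontal axis). Points are genes by their brightest probe set, black bars list medians, and the dashed line is the median of all genes, 0.09. The members have a median of -0.53, or -0.24 without the 3 genes that chose the set. The 7 genes labelled as other genes of the domain have a median of -0.03. All but Cd81 of these lie on the flanks, outside the outermost members.

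The labelled cell type was checked against its markers, and other cell types that could carry these transcripts were read beside it. All 20 ES cell markers passed background in each of the clones, with a median difference of 0.17 beside 0.09 over all genes. Of the 20, 16 were higher in clone 2, against 63.4% of all genes. The markers included Dppa5a (14.15 and 14.06), Tdgf1 (13.01 in clone 2, a difference of 0.01) and Nr0b1 (8.84 and 9.34). Klf4 gave 11.16 and 11.67 by its brighter probe set and 9.29 and 10.41 by the other. The list also holds Klf5 (11.61 and 12.25), which is overexpressed and so does not mark the cell type here. Fibroblast feeder cells express several genes of the cluster. Of 20 measured fibroblast markers, 13 were above background in neither clone, ranging from 3.17 to 5.93 in clone 1 and from 2.96 to 5.63 in clone 2, and these include Col1a1, Col1a2, Col3a1, Postn and Lum. The fibroblast list had a summed signal of 12.15 in clone 1 and 12.26 in clone 2 (log2 of the sum), carried by Vim (11.07 and 11.31) and Fn1 (10.45 and 10.45), which ES cells also express. Thy1 (7.54 and 7.66), Pdgfrb (7.33 and 7.16) and Loxl1 (6.88 and 7.11) also passed in both clones. Col6a2 passed in clone 1 alone (6.70 and 6.13) and Acta2 in clone 2 alone (5.99 and 6.35). Over the 7 fibroblast markers that passed in 1 clone or both, the median difference was 0.12, with 2 lower and 4 higher in clone 2.

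Of 17 measured trophoblast markers, 9 were above background in at least 1 clone, with a median difference of -0.03 and summed signals of 11.86 in both clones. Tfap2c (10.04 in clone 1, a difference of -0.04) and Krt8 (9.29 and 9.54) were above background in both clones. Rhox9 (7.63 and 7.20) and Rhox6 (7.93 and 7.59) were lower in clone 2. Eomes was higher by its brighter probe set (8.24 and 8.60) and lower by the other (8.19 and 8.01). Cdx2, Elf5, Gata3 and Tpbpa were above background in neither clone. Primitive endoderm markers passed for 13 of 19, with a median difference of -0.05 and median signals over the list of 7.19 and 6.93. The summed signal of this list went the other way, with 13.17 in clone 2, higher than in clone 1. Sparc gave 11.07 and 11.56 by its brightest probe set, while its others (10.14 and 10.08, 6.72 and 6.51) were lower in clone 2. Apoe gave 10.47 and 10.32. Sox17 passed in clone 2 alone (6.31 and 6.81), and Hnf4a (7.42 and 6.93) passed by 1 of its 4 probe sets. Gata6 (6.53 and 6.28) just passed in both clones, and Gata4, Sox7, Foxa2 and Pdgfra were above background in neither. Mesoderm markers passed for 3 of 15, with a median difference of 0.15 and summed signals of 9.99 and 9.94. Mesp1 was at least 2.05-fold higher in clone 1. Mesp2 (6.90 and 7.05) and, by its brighter probe set alone, Eomes gave the higher signal in clone 2. Neurectoderm markers passed for 2 of 13, Nes (6.90 and 7.14) and Tubb3 (6.35 and 6.79), with summed signals of 8.91 and 8.93. The part of these cell types in the lower signals of the cluster was not tested, and fewer cells of a type and less RNA per cell cannot be told apart in bulk samples.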

How the data were processed

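Total RNA of 2 clones was hybridised to 2 Affymetrix arrays with biotin-labelled target. Per the submitters' processing notes, Transcriptome Analysis Console was used, and the authors deposited a log2 value for each probe set of each array. No source used here gives the summarisation, the normalization or the log base. Base 2 was taken from the range of 2.21 to 14.38, and each fold rests on it. The column medians were 5.27 and 5.18. Precision is limited by having 2 arrays.

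Of 45037 probe sets, 34945 had 1 gene symbol in the platform annotation, 932 several and 9160 none; the former alone were named. Of these, 34741 matched the gene table of GRCm38.p6, which changed 0 symbols. The files name no build, and coordinates are those of the RefSeq promoter table.

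Values were used as deposited. The background level was the 95th percentile of 83 probe sets of 52 measured genes (60 listed). A gene was read by the probe set with the highest mean. Calls used a fixed 2-fold size with the brighter clone above background; no p-value was computed. Named were all member probe sets, the neighbouring genes, and per list the 3 largest differences and 2 brightest genes. Also named were the 3 most similar genes and the 5 most negative differences. Ctcf, Igf1, Igfbp5, Thy1, Pdgfrb, Loxl1, Gata6 and the marker genes named as not above background were added after their values were seen. The members, lists and background genes were chosen with earlier results of these data known. The size rule was tested on simulated data. That simulation held only genes above background in both clones, so it does not cover Igf2 or Kcnq1ot1. Python 3.11.15, numpy 2.4.6, pandas 2.3.3 and statsmodels 0.14.6 were used. Alternatives were median, quantile and loess (span 0.3) normalization, a background from the 90th percentile, the 99th, 84 probe sets of sensory receptors, or none, the mean over probe sets, omission of probe sets with the suffixes s, x or a, a 1.5-fold threshold and each clone alone.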

Additional observations from a re-analysis of the deposited data

How the results depend on the processing

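Under the 3 other normalizations, the 4 other backgrounds and both other choices of probe set, Cdkn1c (from -1.64 to -1.45), Phlda2 (from -1.42 to -1.20) and Igf2 (from -1.42 to -0.89) stayed lower in clone 2. Igf2 was nearest 0 with the mean over its probe sets, which left 2 members past 2-fold and moved the median over the members to -0.32. Without probe sets ending in s, x or a, 4 members were above background in both clones and the median difference was -0.98; fewer members were then measured above background, and Tssc4 had no value. With each clone alone, 8 members were above background in clone 1 and 8 in clone 2. The levels of Igf2 in clone 2 and Kcnq1ot1 in clone 1 lay near or under background, which limits both. No paired analysis was possible because the 2 arrays form 1 group.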

Other observations

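Regulators not described above were also read from lists chosen with earlier results known. All 11 measured Polycomb genes, which encode repressors of developmental genes, were above background in both clones, with a median difference of 0.13 and 0 past 2-fold. Bmi1 gave 7.75 in clone 1 and 8.23 in clone 2, Pcgf6 9.96 and 10.22, Kdm2b 10.45 and 10.63, Jarid2 12.39 and 12.24, and Eed 12.05 and 11.95. All 9 measured cohesin genes, which act with Ctcf in chromatin loops, were above background in both clones, with a median of 0.18. Nipbl, the loader, gave 8.86 and 9.25, Stag2 9.50 and 9.79, Smc3 10.78 and 10.51, Rad21 11.60 and 11.80, and Wapl, which releases cohesin, 10.75 and 10.70. Cyclins, cyclin-dependent kinases and the replication clamp Pcna were above background in both clones for 9 of 11 measured genes, with a median of 0.04. Ccnd3 gave 11.60 and 11.83, Ccne1 10.55 and 10.74, Ccne2 7.57 and 7.76, Cdk1 11.85 and 11.82, and Pcna 13.34 and 13.25.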
